A study of Mus musculus with 11 samples.

Results

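Hearts of diabetic-model mice labelled as given METTL3 by AAV were compared with hearts of diabetic-model mice that carried no such label, across all genes. The comparison used 8 of the 11 libraries of the series, 4 in each group, each from whole heart tissue of C57BL/6 mice with a labelled time of 26 weeks. One group is labelled HFD+STZ, which in mouse diabetes work commonly abbreviates high-fat diet plus streptozotocin (a beta cell toxin). The other is labelled HFD+STZ+AAV METTL3 and is called METTL3 below; both groups thus share the diabetic treatment. AAV commonly means adeno-associated virus, a vector for gene delivery. The labels name neither the promoter of the vector nor the METTL3 sequence it carries, and mention no control vector for the HFD+STZ mice. The remaining 3 libraries came from hearts of C57BL/6 mice on chow at the same labelled time and were not compared here. They entered the statistical model and so shared in the spread, the scaling and the choice of genes tested. Each library also has a sample code, and 6 of the 8 codes lie between 25 and 33. HFD+STZ replicate 1 has code 83 and METTL3 replicate 4 has code 78. Each result was therefore also computed in the 3 METTL3 and 3 HFD+STZ libraries of codes 25 to 33 alone, which are part of the 8 and so give no independent repeat.

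METTL3 is the catalytic subunit of the nuclear complex that methylates adenosines in messenger RNA to N6-methyladenosine, or m6A. Its partners position the complex on RNA (METTL14, WTAP, VIRMA and the RBM15 proteins), FTO and ALKBH5 remove the mark, and reader proteins with a YTH domain bind it and affect splicing, translation and decay of the marked RNA. In heart muscle, METTL3 is known for its links to growth of cardiac muscle cells. The libraries measured RNA amounts, not the m6A mark.

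Total counts per library ran from 13900531 to 16952639. Several measures of the libraries themselves separated the groups. The mitochondrial genome supplied 30.3% ± 1.73 (SD, n = 4) of the counts in HFD+STZ and 41.6% ± 3.40 (SD, n = 4) in METTL3, a difference of 11.3 percentage points (two-sided exact permutation test p = 0.0286, the smallest that 4 against 4 allows; 0.0343 after Benjamini-Hochberg adjustment over 6 measures). In codes 25 to 33 the difference was 10.1 points, where the smallest possible p is 0.1. Nuclear counts numbered 10454785 to 11989987 in HFD+STZ and 7651470 to 8982819 in METTL3. Nuclear genes with a count numbered 19782 to 20377 in HFD+STZ and 17285 to 19124 in METTL3, and after thinning each library to 7651470 nuclear counts still 19195 to 19445 against 17264 to 18867. Within METTL3, replicates 2 and 4 had the fewest such genes (17285 and 17613). In HFD+STZ, replicate 1 stood apart in collagen and cell-division genes, as described with those genes. It also did so over all genes with enough counts, by the mean Poisson chi-square per gene between a pair of libraries. This was 45.9 to 55.2 between replicate 1 and the other HFD+STZ libraries, and 19.1 to 23.9 among those others. In METTL3 it was 19.2 between replicates 1 and 3, 15.5 between replicates 2 and 4, and 38.6 to 50.1 for the remaining pairs. Cardiac muscle cell markers summed to 34208 to 48239 CPM (counts scaled to a fixed library size) in HFD+STZ and 36189.8 to 41122 CPM in METTL3. The part that mitochondrial share, depth or base composition (last paragraph) had in the results below was not tested.

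The targeted gene was examined first. Mettl3 (ENSMUSG00000022160, chromosome 14, 52294841 to 52305128, mm10 coordinates as deposited) had 7.82, 7.42, 4.39 and 5.78 CPM in HFD+STZ replicates 1 to 4 and 9.64, 6.52, 6.57 and 10.8 CPM in METTL3 replicates 1 to 4. METTL3 replicates 1 and 4 were the highest of the 8 and replicates 2 and 3 lay within the HFD+STZ range, so the groups overlapped. The log2 fold change was 0.40 (SE 0.32) in the 8 libraries and 0.36 in codes 25 to 33, and it did not pass. Every direction given below rests on the labels, and reads of the delivered METTL3 need not be among these counts. The other members of the writer complex lay close together: Mettl14, the RNA-binding partner, had 10.1 to 12.9 CPM against 9.36 to 12.1 CPM (log2 fold change -0.068), Virma, the scaffold, 20.4 to 26.4 against 21.5 to 33.1 CPM (0.17), and Rbm15, which recruits the complex to RNA, 15.3 to 17.9 against 16.5 to 21.97 CPM (0.29). Mettl16, a separate m6A methyltransferase, had a log2 fold change of -0.25, and the eraser Fto of -0.26. Of the 9 writers and 2 erasers tested, 0 had an unadjusted p under 0.05 with edgeR on the counts as deposited. This held in the 8 libraries and in codes 25 to 33. With offsets for transcript length and GC content, the share of G and C bases, 0 reached that mark in the 8 libraries, where Mettl14 lay at -0.34. In codes 25 to 33 with these offsets, Mettl14 (-0.46), Mettl16 (-0.48) and Fto (-0.40) lay lower at that mark.

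Readers of the mark lay higher in METTL3 for some members. Ythdf3, a cytoplasmic reader, had 71.8, 77.2, 86.1 and 75.8 CPM in HFD+STZ replicates 1 to 4 and 104, 126, 100.2 and 111 CPM in METTL3 replicates 1 to 4. Ythdc1, the nuclear reader that acts in splicing, had 35.7, 32.8, 34.4 and 30.2 CPM and 43.3, 50.9, 39.7 and 48.9 CPM in the same order. For both genes all METTL3 libraries exceeded all HFD+STZ libraries, with log2 fold changes of 0.50 (SE 0.15) and 0.46 (SE 0.15), and of 0.46 and 0.45 in codes 25 to 33. These were the 2 of 9 tested readers that lay higher at an unadjusted p under 0.05, a mark that 5.43% of all 14862 genes tested met in that direction; 0 lay lower. The median over the readers was 0.30, beside -0.0036 over all genes tested. With the length and GC offsets, the log2 fold changes of Ythdf3 and Ythdc1 were 0.13 and 0.063. The readers' median was then 0.13 and that over all genes tested 0.015.

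Across all genes, edgeR's quasi-likelihood test called 0 of 14862 at a Benjamini-Hochberg adjusted p under 0.05; the smallest adjusted p was 0.342. An unadjusted p under 0.05 was reached by 1346 genes (9.06%), 807 higher (5.43%) and 539 lower (3.63%) in METTL3, and with upper-quartile scaling by 631 higher and 666 lower. That count was 2602 without chow replicate 3, 821 without HFD+STZ replicate 2 and 811 without HFD+STZ replicate 4. Chow replicate 3 stood apart from chow replicates 1 and 2, with 9.28% mitochondrial counts against 25.3% and 27.4%. It had 15704 nuclear genes with a count, against 20734 and 20641. Without this library edgeR still called 0 genes. The other tools made calls on the same libraries. The DESeq2 Wald test called 139 genes (0.935%), 91 higher (0.612%) and 48 lower (0.323%). Limma voom with quality weights called 395 (2.66%), 269 higher (1.81%) and 126 lower (0.848%). A set of 120 genes (0.807%) was called by both, 85 higher (0.572%) and 35 lower (0.235%). Since edgeR called none, genes are said below to lie higher or lower, and those called by both other tools are named as such.

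Most of these differences held in the nearby codes. Of the 807 genes higher at an unadjusted p under 0.05, 793 were tested in codes 25 to 33, all 793 had the same direction there, and 656 also had an unadjusted p under 0.05 there (4.41% of all genes tested). For the 539 lower genes the numbers were 506 tested, 506 in the same direction and 415 at p under 0.05 (2.79%). All 85 higher and all 35 lower genes called by both DESeq2 and limma voom also reached an unadjusted p under 0.05 in codes 25 to 33. Within codes 25 to 33 alone edgeR called 0 of 13797 genes, with a smallest adjusted p of 0.0898, and 2428 had an unadjusted p under 0.05 (17.6%), 1263 higher (9.15%) and 1165 lower (8.44%). DESeq2 called 586 genes there (4.25%), 280 higher (2.03%) and 306 lower (2.22%). Limma voom called 445 (3.23%), 206 higher (1.49%) and 239 lower (1.73%). The unadjusted count in codes 25 to 33 was 1494 without HFD+STZ replicate 2, and edgeR called 24 genes there without METTL3 replicate 2 and 0 without any other of the 6 libraries. List counts below stand beside 5.43% higher and 3.63% lower of all genes in the 8 libraries. In codes 25 to 33 they stand beside 9.15% and 8.44%.

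**Figure D1:**
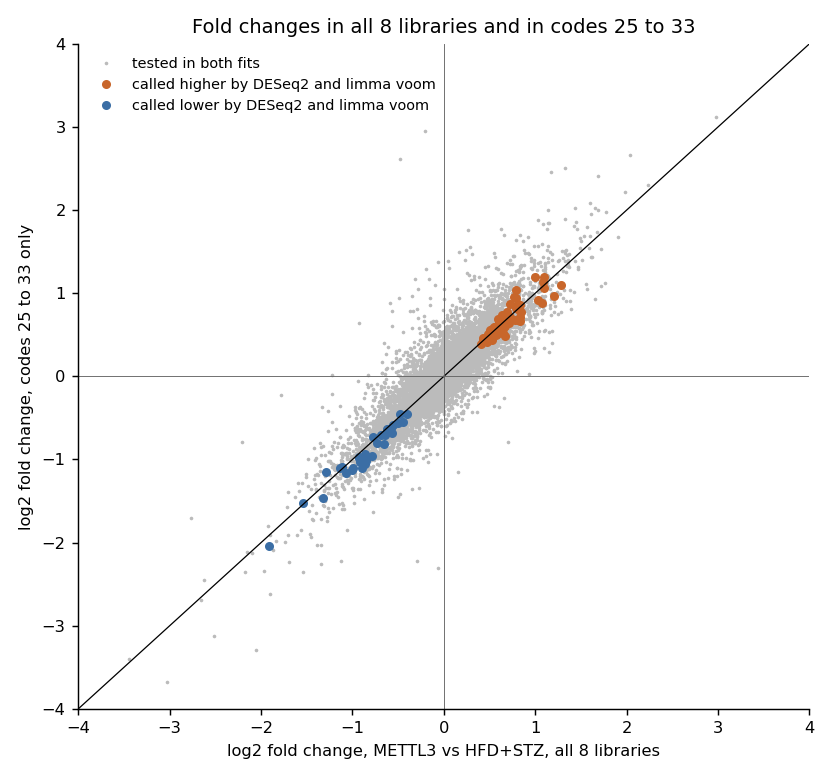
Each point is 1 of the 13797 genes tested in both fits, with its log2 fold change of METTL3 against HFD+STZ in all 8 libraries on the x axis and in codes 25 to 33 alone on the y axis; 3 genes lie outside the axes and the line marks equal values. Orange and blue points are the 85 higher and 35 lower genes called by both DESeq2 and limma voom, and each of them keeps its side of 0 on both axes.

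The lower genes included several of macrophages and antigen presentation. Apoe (ENSMUSG00000002985, chromosome 7, 19696109 to 19699188), the lipid carrier apolipoprotein E, which macrophages secrete, had 287, 248, 397 and 256 CPM in HFD+STZ replicates 1 to 4 and 124, 142, 153 and 118 CPM in METTL3 replicates 1 to 4. The highest METTL3 library lay well under the lowest HFD+STZ library. The mean was 297 ± 68.6 CPM (SD, n = 4) against 135 ± 16.1 CPM (SD, n = 4). The log2 fold change was -1.14 (SE 0.21), -1.11 in codes 25 to 33 and -0.89 with length and GC offsets, and both DESeq2 and limma voom called the gene. Clec10a, a lectin of macrophages and dendritic cells, had 4.86, 11.98, 17.9 and 6.88 CPM against 2.98, 1.67, 4.23 and 2.06 CPM, a log2 fold change of -1.92 (SE 0.46), and was called by both tools. In whole tissue, fewer cells of a type and less RNA per cell cannot be told apart.

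Class II molecules of the major histocompatibility complex present peptides from taken-up protein to helper T cells, and their genes are transcribed together under the coactivator CIITA in macrophages, dendritic cells and B cells. H2-Aa (ENSMUSG00000036594, chromosome 17, 34282744 to 34287827), an alpha chain, had 11.8, 22.1, 13.2 and 13.4 CPM in HFD+STZ replicates 1 to 4 and 9.09, 7.35, 6.57 and 4.84 CPM in METTL3 replicates 1 to 4. H2-Eb1 (ENSMUSG00000060586, chromosome 17, 34305877 to 34316199), a beta chain, had 6.92, 19.9, 10.5 and 13.1 CPM and 7.13, 4.095, 4.68 and 4.21 CPM, and H2-Ab1, another beta chain, 6.199, 14.5, 6.34 and 9.13 CPM and 3.45, 5.01, 3.17 and 0.358 CPM. For H2-Aa and H2-Ab1 the groups did not overlap; for H2-Eb1 METTL3 replicate 1 just exceeded HFD+STZ replicate 1, and in codes 25 to 33 the groups were apart for all 3 genes. The promoters of H2-Aa and H2-Eb1 are shown because these members lay lower together; the 8 capital letters CTGATTGG are the Y box, the inverted CCAAT element known from class II promoters. The sequences are RefSeq's on GRCm38.p6 and end at the base before the start site, H2-Aa on the minus strand at chr17:34287824-34288073 and H2-Eb1 on the plus strand at chr17:34305617-34305866.
H2-Aa: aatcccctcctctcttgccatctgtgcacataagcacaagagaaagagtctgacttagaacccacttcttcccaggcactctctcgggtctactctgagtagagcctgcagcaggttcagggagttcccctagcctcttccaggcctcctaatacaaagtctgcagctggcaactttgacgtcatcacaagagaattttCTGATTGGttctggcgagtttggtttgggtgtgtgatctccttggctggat
H2-Eb1: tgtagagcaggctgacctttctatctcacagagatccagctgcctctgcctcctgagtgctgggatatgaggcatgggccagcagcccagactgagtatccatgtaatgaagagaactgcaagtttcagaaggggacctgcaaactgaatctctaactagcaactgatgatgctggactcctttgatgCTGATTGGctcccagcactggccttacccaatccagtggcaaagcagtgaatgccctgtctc
The Y box begins 51 bases before the start in H2-Aa and 62 in H2-Eb1. Counted on both strands (as CTGATTGG or CCAATCAG), it occurred in 1342 of 32817 RefSeq promoter windows of 300 bases, from 250 before to 50 after the start (4.09%). It was found in 3 of the 7 class II presentation genes matched in that table by symbol, H2-Aa, H2-Eb1 and H2-Oa. A match describes the letters only.

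The log2 fold changes were -1.11 (SE 0.27) for H2-Aa, -1.32 (SE 0.31) for H2-Eb1 and -1.59 (SE 0.50) for H2-Ab1. In codes 25 to 33 they were -1.09, -1.46 and -1.38. DESeq2 and limma voom both called H2-Aa and H2-Eb1. Cd74, the invariant chain that escorts class II molecules and a gene outside the naming rule, chosen after its values were seen, had 51.01 to 91.3 CPM against 13.3 to 47.97 CPM and a log2 fold change of -1.21 (SE 0.42). Of 10 listed class II presentation genes 8 were tested, 4 lay lower at an unadjusted p under 0.05 and 0 higher, and the same 4 reached it in codes 25 to 33, where 8.44% of all genes lay lower by that mark. The list's median was -0.78 in the 8 libraries, -1.07 in codes 25 to 33 and -0.64 with length and GC offsets. The summed level ran from 87.8 to 152 CPM in HFD+STZ and from 24.9 to 70.1 CPM in METTL3. Class I presentation, which all nucleated cells carry out, had a median of -0.33 and 0 of 11 genes at that mark in the 8 libraries, and 4 lower in codes 25 to 33.

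Complement C1q is made by macrophages, and its genes C1qa and C1qc followed the same direction. The naming rule did not take the remaining chain, C1qb. C1qa (ENSMUSG00000036887, chromosome 4, 136895917 to 136898803) had 35.1, 35.8, 48.2 and 30.7 CPM in HFD+STZ replicates 1 to 4 and 17.4, 14.9, 19.5 and 9.68 CPM in METTL3 replicates 1 to 4, with no overlap and a log2 fold change of -1.28 (SE 0.36; -1.15 in codes 25 to 33). Both DESeq2 and limma voom called it. Its partner C1qc had 24.4 to 51.2 CPM against 13.3 to 21.3 CPM, a log2 fold change of -0.95 (SE 0.29), again without overlap. Fcgr3, an activating Fc receptor, lay at -1.07 (SE 0.35) with overlapping groups, and the protease gene Ctss at -0.88 (SE 0.29). The leukocyte tetraspanin gene Cd37 (-2.15, SE 0.41) and the interleukin-10 receptor gene Il10ra (-1.40, SE 0.38) were low in all libraries, at 2.49 to 4.58 and 2.92 to 5.85 CPM in HFD+STZ and 0.418 to 1.02 and 0.986 to 2.57 CPM in METTL3. Fcgr4, another Fc receptor gene, rests on fewer counts still, with 0.391 to 3.97 CPM against 0 to 0.302 CPM.

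Not every macrophage gene lay lower. Of 19 listed markers 18 were tested, 17 had a negative fold change, 4 lay lower at an unadjusted p under 0.05 and 3 of these also in codes 25 to 33; in 2 the groups did not overlap, beside 4.14% of all genes with METTL3 wholly lower. The list's median was -0.50 and its summed level 347 to 791 CPM in HFD+STZ and 245 to 418 CPM in METTL3, which overlap. HFD+STZ replicate 3 had the highest sum, and without it the median was -0.27 in the 8 libraries and 0.017 in codes 25 to 33. Gpnmb, a glycoprotein of lipid-loaded macrophages, went the other way, with 3.29, 1.09, 2.997 and 2.62 CPM in HFD+STZ replicates 1 to 4 and 11.7, 6.77, 5.97 and 2.87 CPM in METTL3 replicates 1 to 4. METTL3 replicate 4 lay inside the HFD+STZ range, and the log2 fold change was 1.45 (SE 0.45), and 1.86 in codes 25 to 33. Of 15 lipid-handling macrophage genes 4 lay lower and 1 higher at an unadjusted p under 0.05, beside 3.63% and 5.43% of all genes. In this list 8 fold changes were negative and 7 positive, with a median of -0.060, and 0.042 with length and GC offsets. Its summed level was 5274 to 6674 CPM in HFD+STZ and 6506 to 7678 CPM in METTL3. Neutrophil calprotectin genes were high in 2 HFD+STZ libraries only: S100a9 had 2.904, 16.1, 14.6 and 1.096 CPM in HFD+STZ replicates 1 to 4 and 2.12, 0.752, 0.755 and 2.42 CPM in METTL3 replicates 1 to 4, and S100a8 0.782, 7.17, 9.48 and 0.548 CPM and 1.02, 0.501, 0.227 and 2.598 CPM. Their groups overlapped, and the median over 8 tested neutrophil markers was -1.94.

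**Figure D2:**
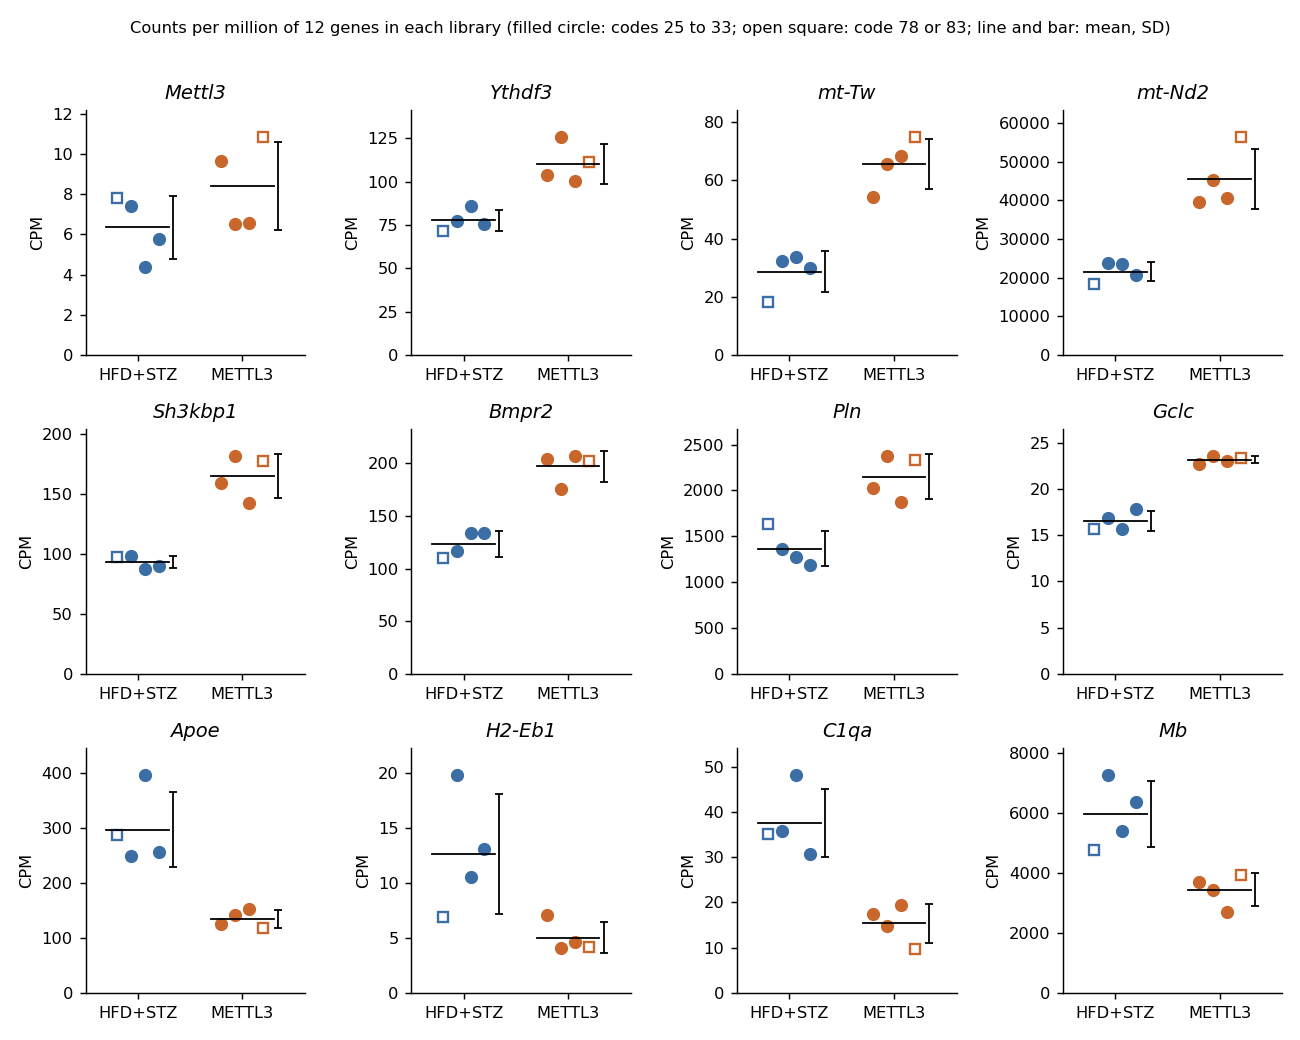
CPM of 12 genes described in the text in each library (y axes start at 0); filled circles are codes 25 to 33, open squares codes 78 and 83, and the line and bar give the mean and SD of 4 libraries. METTL3 libraries lie wholly above HFD+STZ for Ythdf3, mt-Tw, mt-Nd2, Sh3kbp1, Bmpr2, Pln and Gclc and wholly below for Apoe, C1qa and Mb; they overlap for Mettl3 and H2-Eb1.

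Genes of heart muscle lay in both directions. Of 12 cardiac muscle cell markers 3 lay higher and 2 lower at an unadjusted p under 0.05, with a median of -0.012, and 2 and 3 in codes 25 to 33. Of 17 contractile and fetal genes 1 lay higher and 1 lower, and 0 and 3 in codes 25 to 33. Among the lower genes, Mb (ENSMUSG00000018893, chromosome 15, 77015487 to 77050670), encoding the oxygen store myoglobin, had 4779.5, 7281, 5412 and 6388 CPM in HFD+STZ replicates 1 to 4 and 3702, 3439.9, 2704 and 3952 CPM in METTL3 replicates 1 to 4. Fabp3, the fatty acid carrier of heart muscle, had 3312, 5344, 4150.1 and 4418 CPM and 2935, 1835, 2115 and 2652 CPM. In both genes the groups did not overlap, HFD+STZ replicate 1 was the lowest of its group, and both DESeq2 and limma voom called them. The log2 fold changes were -0.79 (SE 0.20) and -0.85 (SE 0.25), -0.96 and -1.02 in codes 25 to 33, and -0.62 and -0.71 with length and GC offsets. Myh6, the adult alpha-myosin heavy chain, had 10029, 16994, 17722 and 16152 CPM and 9821, 8665, 10130.0 and 9749.6 CPM. Here HFD+STZ replicate 1 lay among the METTL3 libraries while the other 3 HFD+STZ libraries lay above them, and the log2 fold change was -0.67 (SE 0.30) in the 8 libraries and -0.84 in codes 25 to 33. Bsg, the chaperone of lactate transporters, lay at -0.64 (SE 0.17) without overlap and was called by both tools.

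Ion channel genes lay in both directions. Kcnh2, the channel of the rapid delayed rectifier potassium current, had 51.6, 92.2, 107 and 88.6 CPM in HFD+STZ replicates 1 to 4 and 49.2, 43.5, 48.3 and 39.1 CPM in METTL3 replicates 1 to 4, a log2 fold change of -0.91 (SE 0.25). HFD+STZ replicate 1 lay nearest to METTL3, and in codes 25 to 33 the value was -1.04. Hcn2, a pacemaker channel, had 17.9 to 26.7 CPM against 9.59 to 13.7 CPM (-0.93, SE 0.24). DESeq2 and limma voom called both. Scn7a, a sodium-sensing channel that is also in the Schwann cell list, lay in the other direction, with 43.3, 38.9, 45.8 and 39.6 CPM in HFD+STZ and 64.9, 68.5, 71.3 and 70.6 CPM in METTL3 (0.72, SE 0.15), and both tools called it too. In all, 1 of 19 channel genes lay higher and 3 lower at an unadjusted p under 0.05, with a median of -0.16. Among calcium-cycling genes 3 of 12 lay higher and 0 lower, with a median of -0.09. Pln, phospholamban, the inhibitor of the calcium pump SERCA, had 1629, 1363, 1274 and 1188 CPM against 2024, 2378, 1875 and 2330.2 CPM (0.66, SE 0.18; 0.71 in codes 25 to 33; 0.29 with length and GC offsets) and was called by both tools. Camk2d, the main calmodulin kinase of heart muscle, lay at 0.49 (SE 0.17) and the junctional protein gene Trdn at 0.52 (SE 0.21), both without overlap.

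Genes of glucose use lay lower in part. Of 17 glycolysis genes 4 lay lower and 0 higher at an unadjusted p under 0.05, and 9 lay lower in codes 25 to 33, where HFD+STZ replicate 1 is absent. Over all genes tested, 3.63% lay lower and 5.43% higher in the 8 libraries, and 8.44% lower in codes 25 to 33. The glycolysis median was -0.27, -0.42 in codes 25 to 33 and -0.10 with length and GC offsets. With the offsets 0 of the 17 glycolysis genes reached that mark in the 8 libraries. Pkm, pyruvate kinase of muscle, had 722, 936, 851 and 869 CPM and 669, 682, 625 and 683 CPM, with no overlap and a log2 fold change of -0.35 (SE 0.15), which was -0.10 with the offsets. Pfkl, a phosphofructokinase, lay at -0.59 and Pgk1, phosphoglycerate kinase, at -0.42, both with overlap. In codes 25 to 33 with the offsets, Pfkl (-0.51) and Pgk1 (-0.40) reached that mark and Pkm (-0.20) did not. Targets of the fatty acid sensor PPAR-alpha had a median of -0.30 over 18 genes, 1 lower and 1 higher at that mark, and 9 lower in codes 25 to 33. The higher one was the fatty acid transporter gene Cd36 (0.47, SE 0.20), which at 0.33 did not reach that mark in codes 25 to 33. Pdk4, the kinase that switches off pyruvate dehydrogenase, spread widely in both groups, with 944, 4542, 5457 and 3173 CPM in HFD+STZ replicates 1 to 4 and 4005, 810.1, 4548 and 1838 CPM in METTL3 replicates 1 to 4, and a log2 fold change of -0.33 (SE 0.56). The atrial peptide gene Nppa, a marker of cardiac stress, had 21.6 to 66.2 CPM against 17.1 to 39.02 CPM (-0.75, SE 0.47). Enzymes of fatty acid oxidation had a median of -0.13 and 0 of 20 at that mark in the 8 libraries, and 6 lower in codes 25 to 33.

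Among the higher genes, those of the mitochondrial genome had the largest counts. This small circular genome encodes 13 messenger RNAs for subunits of the respiratory chain, along with ribosomal and transfer RNAs, and is transcribed in long precursors from which the transfer RNAs are cut. The smallest p of all genes belonged to mt-Tw (ENSMUSG00000064346, chromosome MT, 4950 to 5016, plus strand), the transfer RNA for tryptophan. It is shown in GENCODE M21's DNA letters because of that p, with its anticodon in capitals.
mt-Tw: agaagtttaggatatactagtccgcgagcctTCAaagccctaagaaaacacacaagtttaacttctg
It had 18.4, 32.3, 33.7 and 29.9 CPM in HFD+STZ replicates 1 to 4 and 54.3, 65.6, 68.3 and 74.9 CPM in METTL3 replicates 1 to 4. HFD+STZ replicate 1 was lowest, and every METTL3 library exceeded the highest HFD+STZ library. The log2 fold change was 1.20 (SE 0.20), 0.96 in codes 25 to 33 and 0.83 with length and GC offsets, and both DESeq2 and limma voom called it. The gene overlaps the end of mt-Nd2 (3914 to 4951), so a read across that boundary could be counted for either.

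mt-Nd2, a subunit of complex I, had 18429.9, 23702, 23453 and 20754 CPM in HFD+STZ replicates 1 to 4 and 39666, 45216, 40564 and 56416 CPM in METTL3 replicates 1 to 4. Its neighbour mt-Nd1 had 30308, 33701, 34240.1 and 28244 CPM and 52546, 56950.5, 44784 and 63601 CPM. mt-Nd6, the only messenger on the minus strand, had 8349, 8653, 11753 and 8707 CPM and 14011, 28593, 20170.4 and 28416 CPM. No groups overlapped in these 3 genes, all were called by both DESeq2 and limma voom, and METTL3 replicate 1 was the lowest METTL3 library for mt-Nd2 and mt-Nd6. The log2 fold changes were 1.07 (SE 0.27), 0.78 (SE 0.23) and 1.28 (SE 0.25), with 0.88, 0.68 and 1.10 in codes 25 to 33. Without a stated strand setting, mt-Nd6 counts cannot be told from antisense reads, and nuclear copies of mitochondrial sequence can take up or share reads of all these genes. Cytochrome b (mt-Cytb) lay at 0.72 (SE 0.32) and mt-Nd3 at 0.56 (SE 0.25). The cytochrome oxidase genes mt-Co1 (0.48, SE 0.39), mt-Co2 (0.53, SE 0.45) and mt-Co3 (0.47, SE 0.35) had overlapping groups. mt-Atp8 (-0.32, SE 0.59) and mt-Nd4l (-0.21, SE 0.72) were the 2 with negative values.

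Over the 13 mitochondrial messengers 5 lay higher at an unadjusted p under 0.05 and 0 lower, 7 had METTL3 wholly higher, a pattern of 5.43% of all genes, and 8 lay higher at an unadjusted p under 0.05 in codes 25 to 33. The median was 0.69, 0.50 in codes 25 to 33 and 0.24 with length and GC offsets; their median GC content was 37.1%, against 49.6% over all genes tested. The large ribosomal RNA mt-Rnr2 had 4961, 8345, 5212 and 6322 CPM in HFD+STZ and 8352, 14931, 10561 and 18450.0 CPM in METTL3 (1.07, SE 0.30), with METTL3 replicates 2 and 4 the highest; the kit was one that depletes ribosomal RNA, so these amounts are what depletion left. Of 15 transfer RNAs tested, 7 lay higher at an unadjusted p under 0.05 and 0 lower. Besides mt-Tw they included mt-Te (1.20, SE 0.46), mt-Tr (1.11, SE 0.31) and mt-Tp (1.03, SE 0.27, chosen after its values were seen). The transfer RNA median was 0.73, 0.36 in codes 25 to 33 and 0.14 with length and GC offsets, at a median GC content of 34.3%. For the 2 ribosomal RNAs these medians were 0.93, 0.61 and 0.37. With the offsets, 0 of these 2 reached that mark in the 8 libraries.

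**Figure D3:**
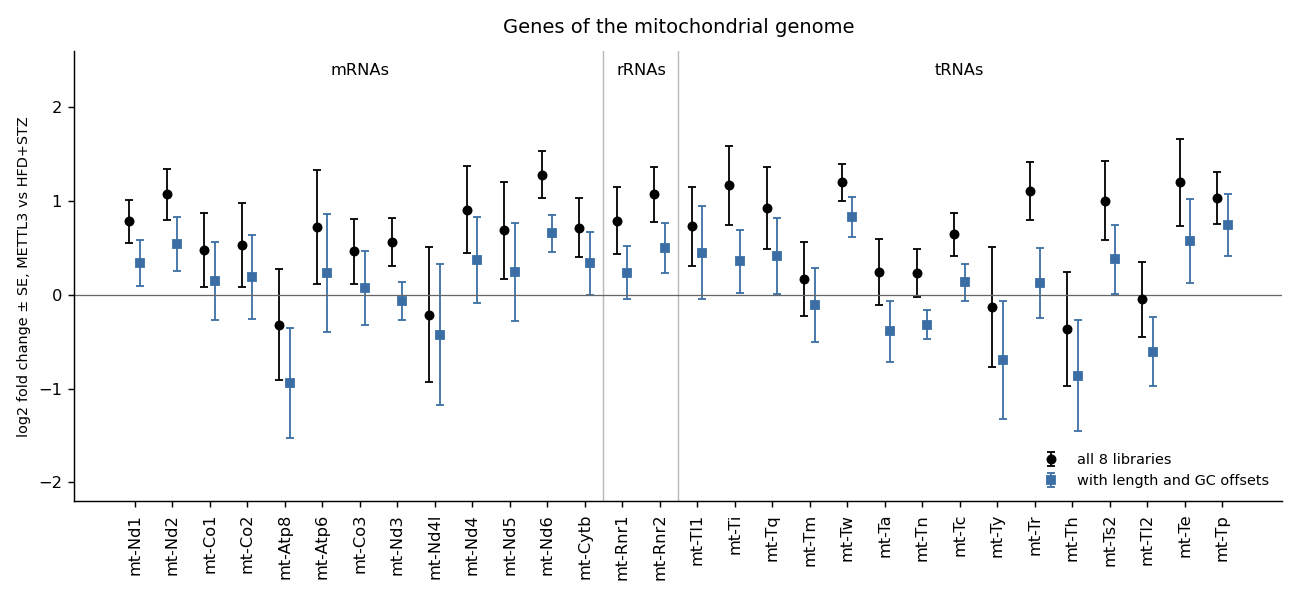
Log2 fold change of METTL3 against HFD+STZ (y axis, with its SE) for the mitochondrial genes tested, in the 8 libraries with counts as deposited (black) and with length and GC offsets (blue). Black points lie above 0 for 11 of the 13 messengers, and the offsets lower the messengers' median from 0.69 to 0.24.

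Nuclear genes of the respiratory complexes had medians near that of all genes in the 8 libraries. The 37 nuclear genes of complex I had a median of -0.082, with 3 lower and 0 higher at an unadjusted p under 0.05. Ndufs5 (-1.22, SE 0.55), Ndufa12 (-0.75, SE 0.30) and Ndufb8 (-0.67, SE 0.30), all accessory subunits, were the lower ones, and each reached that mark in codes 25 to 33 too. Ndufs5 had 80.7, 39.8, 36.7 and 73.4 CPM in HFD+STZ replicates 1 to 4 and 21.8, 31.3, 17.8 and 27.9 CPM in METTL3 replicates 1 to 4. Complexes II to V had 1 higher and 0 lower of 46, and a median of 0.015. In codes 25 to 33, complex I had 1 higher and 8 lower with a median of -0.17, and complexes II to V had 3 higher and 9 lower with a median of -0.083. Among 77 genes of the mitochondrial ribosome 2 lay higher and 5 lower in the 8 libraries, beside 5.43% and 3.63% of all genes tested. In codes 25 to 33 these were 4 and 12, beside 9.15% and 8.44%. Mrpl1, at 30.2 to 35.96 CPM against 47.4 to 71.2 CPM (0.82, SE 0.27), was one of the higher. Slirp, which stabilises mitochondrial messengers, was low throughout, at 1.12, 2.01, 0.558 and 1.64 CPM in HFD+STZ and 0, 0, 0.151 and 0.179 CPM in METTL3, and could not be tested in codes 25 to 33.

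The nuclear gene with the smallest p was Sh3kbp1 (ENSMUSG00000040990, chromosome X, 159627272 to 159978069), an adaptor of receptor endocytosis. It had 96.9, 97.7, 87.4 and 90.03 CPM in HFD+STZ replicates 1 to 4 and 159, 181, 142 and 177 CPM in METTL3 replicates 1 to 4. The mean was 93.01 ± 5.08 CPM (SD, n = 4) against 165 ± 18.1 CPM (SD, n = 4), with a wide gap between the groups. The log2 fold change was 0.83 (SE 0.14), 0.80 in codes 25 to 33 and 0.66 with length and GC offsets. St8sia4, a polysialic acid synthase, had 19.8, 12.04, 15.8 and 20.9 CPM and 37.8, 40.03, 29.4 and 37.8 CPM (1.08, SE 0.19). Bmpr2, the type II receptor for bone morphogenetic proteins, had 109.6, 117, 134 and 134 CPM and 203, 176, 207 and 202 CPM (0.67, SE 0.15). These 3 genes were called by both DESeq2 and limma voom.

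Other nuclear genes were called by both tools as well. Tmed7, a cargo receptor between endoplasmic reticulum and Golgi, had 91.1, 85.6, 92.2 and 86.9 CPM in HFD+STZ replicates 1 to 4 and 135, 121, 138 and 141 CPM in METTL3 replicates 1 to 4, so that each group stayed within a narrow range. Rab1a, a GTPase of the same step, had 150.3, 145, 144 and 140.5 CPM and 194, 199, 189 and 198 CPM. Tmx3, a disulfide isomerase of the endoplasmic reticulum, had 41.03 to 49.2 CPM against 62.6 to 79.7 CPM. Their log2 fold changes were 0.59 (SE 0.13), 0.43 (SE 0.13) and 0.65 (SE 0.14). With length and GC offsets they were 0.35, 0.20 and 0.15. AW549877 (0.73, SE 0.14) and Zc2hc1a (0.80, SE 0.16) were called by both tools as well. On the lower side, the tools shared Hnrnpab, an RNA-binding protein gene with 86.9, 115, 85.4 and 124 CPM in HFD+STZ and 63.5, 50.3, 53.2 and 56.7 CPM in METTL3 (-0.88, SE 0.17; -0.82 with the offsets). They also shared Sema3b, a secreted semaphorin (-0.99, SE 0.23), and Pcbp1, a poly(C)-binding protein gene (-0.48, SE 0.14). Gclc, the catalytic subunit that starts glutathione synthesis, had 15.6 to 17.8 CPM in HFD+STZ and 22.7 to 23.6 CPM in METTL3 (0.49, SE 0.14; 0.47 with the offsets), the METTL3 libraries lying close together; both tools called it. Of 21 antioxidant genes it was the 1 that lay higher at an unadjusted p under 0.05, and 1 lay lower.

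By size of fold change, the higher genes named by rule included transcription factors with zinc fingers. Ikzf5 had 3.35, 3.59, 2.37 and 2.31 CPM in HFD+STZ replicates 1 to 4 and 5.72, 8.19, 7.098 and 8.602 CPM in METTL3 replicates 1 to 4 (1.34, SE 0.53). Zfp942 (1.14, SE 0.31), Zfp985 (1.38, SE 0.48) and Zfp760 (1.10, SE 0.36) had groups apart, with METTL3 replicate 2 far above the others for Zfp760. The 441 zinc finger genes of the C2H2 class were chosen as a class after its values were seen. Of these, 47 lay higher and 13 lower at an unadjusted p under 0.05, beside 5.43% and 3.63% of all genes tested. The class median was 0.098, and 0.017 with length and GC offsets, at a median GC content of 44.7%. At the lower end Irx1, a patterning factor of the heart, had 8.04, 27.3, 19.4 and 14.9 CPM against 6.03, 3.09, 7.25 and 4.84 CPM (-1.71, SE 0.62).

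Splicing factor genes lay in both directions. Of 30 hnRNP and SR genes 4 lay higher and 1 lower, the lower one Hnrnpab, and 8 lay higher in codes 25 to 33. Srsf11 had 77.01, 57.2, 58.8 and 58.2 CPM in HFD+STZ and 71.4, 121, 82.5 and 126 CPM in METTL3, where replicates 2 and 4 were far above replicates 1 and 3, the first of which fell within the HFD+STZ range (0.67, SE 0.20). Hnrnpa3 lay at 0.59 (SE 0.22), with HFD+STZ replicate 1 among the METTL3 libraries. Among clock genes, the nuclear receptors Rora (0.61, SE 0.20) and Nr1d2 (0.47, SE 0.19) had groups apart, and 2 of 19 lay higher and 1 lower. The 78 cytosolic ribosomal protein genes tested had a median of 0.042 and 4 lower, Rpl28 among them (-0.69, SE 0.32; reads of these genes can be shared with pseudogenes), and 0 higher. Proteasome genes had 1 higher of 38, Psmd14 (0.53, SE 0.22), and 0 lower. Over all genes tested, 5.43% lay higher and 3.63% lower in the 8 libraries.

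Collagen, matrix and cell-division genes depended on HFD+STZ replicate 1. Col3a1, a fibrillar collagen, had 363, 75.5, 114 and 139.8 CPM in HFD+STZ replicates 1 to 4 and 178, 103, 186 and 158 CPM in METTL3 replicates 1 to 4. The first HFD+STZ library was the highest of the 8, and the log2 fold change was -0.14 (SE 0.43) with it and 0.51 without it. Dcn, the proteoglycan decorin of fibroblasts, had 1034, 537, 624 and 501 CPM and 764, 788, 1078 and 863 CPM, with 0.37 (SE 0.24) in the 8 libraries and 0.65 in codes 25 to 33. Of 20 fibroblast and matrix genes 0 reached an unadjusted p under 0.05 in the 8 libraries and 7 lay higher in codes 25 to 33, where 9.15% of all genes did. Their median went from 0.038 to 0.41, and that of 34 collagen genes from 0.042 to 0.46. The collagen genes Col4a5 (0.37, SE 0.16) and Col4a4 (0.59, SE 0.22) of basement membranes lay higher in the 8 libraries. Top2a, the topoisomerase of dividing cells, had 10.7, 1.22, 0.976 and 1.16 CPM in HFD+STZ replicates 1 to 4 and 0.4701, 0, 0.529 and 1.08 CPM in METTL3 replicates 1 to 4, and the median over 20 cell-cycle genes was -0.66 in the 8 libraries and -0.081 in codes 25 to 33.

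Schwann cell markers, of the glia around cardiac nerves, had a median of 0.23 and 0.40 in codes 25 to 33, with 2 higher and 0 lower of 10. Scn7a, given with the channels, was one of them, and the lineage factor Sox10 had a log2 fold change of 0.96 (SE 0.46) that did not reach that mark. The summed level of the markers was 104 to 149.8 CPM against 142 to 179 CPM. Endothelial markers had a median of 0.028, with 1 of 14 higher, Emcn (0.65, SE 0.26). The pericyte gene Rgs5 lay at 0.49 (SE 0.19) without overlap, 1 of 12 mural cell markers at that mark. Adipocyte markers had a median of -0.51, 2 of 8 lower and 0 higher. That median was -0.44 in codes 25 to 33, and 0.26 without chow replicate 3 and HFD+STZ replicate 1. Atrial markers had a median of -0.65, and 0.011 in codes 25 to 33, with 1 lower and 0 higher of 7. Interferon-stimulated genes had 1 higher, Ifi44 (1.20, SE 0.39), and 1 lower of 28. In codes 25 to 33 Ifi44 lay at 0.78 and did not reach that mark. Of the glucocorticoid-responsive genes, Fkbp5 had 53.1 to 227 CPM against 60.5 to 112 CPM (-0.73, SE 0.35, not past that mark) and -1.05 in codes 25 to 33. The contractile gene Actc1, cardiac actin, lay higher at 0.42 (SE 0.17) with groups apart, but at 0.32 did not reach that mark in codes 25 to 33.

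**Figure D4:**
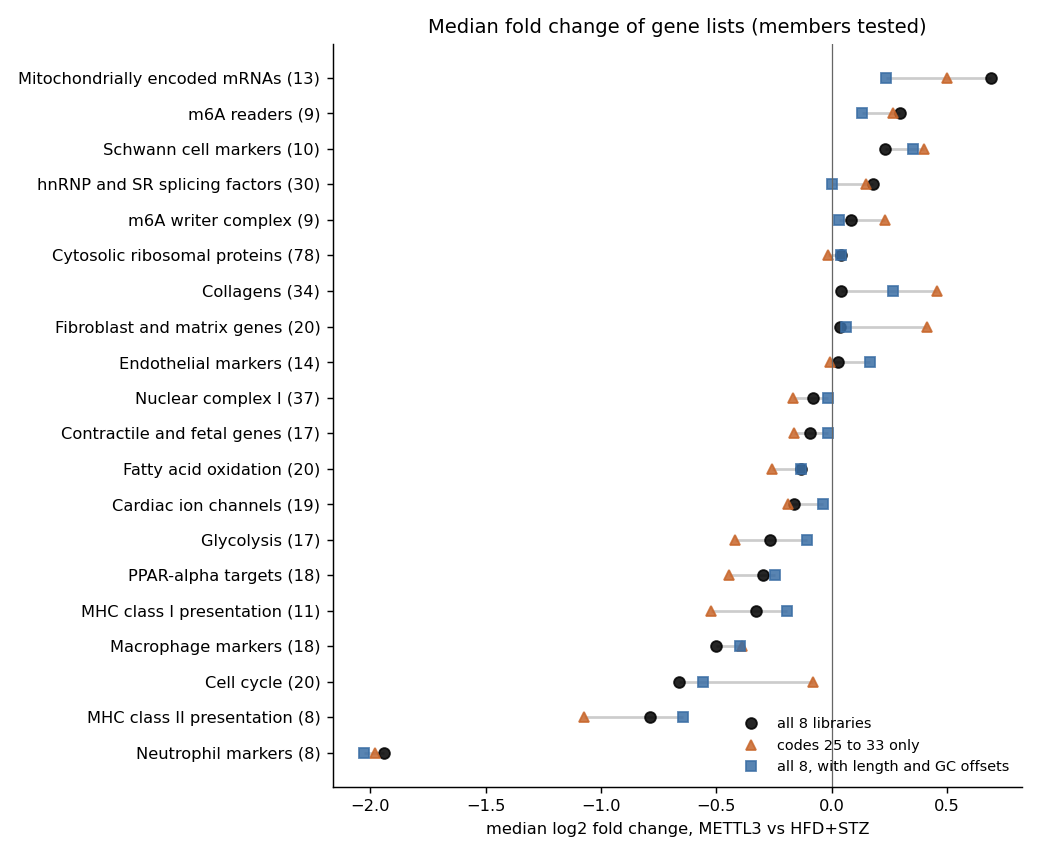
Median log2 fold change of METTL3 against HFD+STZ (x axis) of 20 gene lists, with the number of members tested in brackets; circles are the 8 libraries, triangles codes 25 to 33 alone and squares the 8 libraries with length and GC offsets. Class II presentation and neutrophil markers lie lowest, and mitochondrial messengers lie highest without the offsets. With the offsets, Schwann cell markers (0.35) and collagens (0.27) lie above mitochondrial messengers (0.24). The collagen, fibroblast and cell-cycle medians move when HFD+STZ replicate 1 is absent.

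Fold changes differed with base composition. When the genes tested were sorted into quintiles by the GC content of their transcripts, the median log2 fold change was 0.30, 0.11, -0.02, -0.13 and -0.23 from the lowest quintile to the highest. METTL3 was wholly higher in 520 genes of the lowest quintile and wholly lower in 13; in the highest quintile these numbers were 8 and 310. The 807 genes higher at an unadjusted p under 0.05 had a median GC content of 41.3% and a median length of 5551 bases, and the 539 lower genes 55.4% and 3048 bases, against 49.6% and 4129 bases over all genes tested. Per library, the median centred log2 CPM of the lowest quintile minus that of the highest was -0.16, -0.30, -0.08 and -0.37 in HFD+STZ replicates 1 to 4 and 0.28, 0.16, 0.21 and 0.28 in METTL3 replicates 1 to 4, so this measure too separated the groups. With offsets for length and GC content, 707 genes had an unadjusted p under 0.05, 373 higher and 334 lower. Of the genes that held in codes 25 to 33, 180 of 656 higher and 168 of 415 lower also reached that mark in the 8 libraries with the offsets, as did 51 of the 85 higher and 26 of the 35 lower genes called by both DESeq2 and limma voom. Apoe, Hnrnpab, H2-Aa, H2-Eb1, C1qa, Mb, Fabp3, mt-Tw, mt-Nd6, Sh3kbp1, St8sia4, Tmed7 and Gclc were among those past that mark with the offsets, while mt-Nd2, mt-Nd1, Pln, Rab1a, Tmx3, Ythdf3 and Ythdc1 were not.

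**Figure D5:**
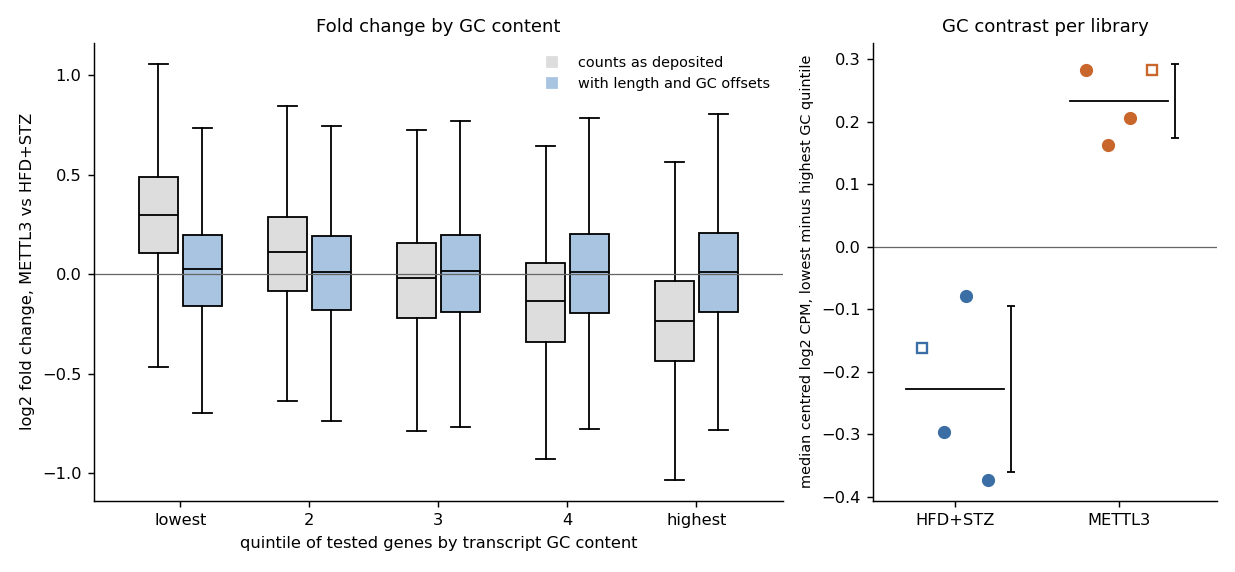
Left, log2 fold changes between METTL3 and HFD+STZ (y axis) by quintile of transcript GC content (x axis), with counts as deposited (grey) and with length and GC offsets (blue); boxes give the median and quartiles and whiskers reach 1.5 times the box. Right, the GC contrast of each library, lowest minus highest quintile in centred log2 CPM, which lies below 0 in all 4 HFD+STZ libraries and above 0 in all 4 METTL3 libraries.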

How the data were processed

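RNA of whole frozen hearts was extracted with Trizol, ribosomal RNA was removed with a RiboZero kit and libraries were made with a NEB kit, per the labels' protocols. The authors deposited whole-number counts for 54532 genes in a single table. Tools named in the submitters' processing notes are FastQC and Salmon, with mm10 as the build; for versions, annotation and strand setting the sources used here give nothing. No label ties replicates to separate animals, and the spread that p-values measure may therefore be technical. No replicate pair agreed within sampling noise.

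The deposited counts went into edgeR 4.0.16 (R 4.3.3) with TMM scaling, filterByExpr (minimum count 10, minimum total 15), group means of all 11 libraries and the quasi-likelihood test over 14862 genes with Benjamini-Hochberg adjustment. The 6 libraries of codes 25 to 33 were fitted alone over 13797 genes. DESeq2 1.42.0 (139 calls), limma 3.58.1 voom, other scalings and filters, length and GC offsets (loess, span 0.5, the longest GENCODE M21 transcript, found for 99.9% of tested genes), the code range, the replicate block and leaving out each library were alternatives. CPM values use TMM library sizes. The procedure was tested on simulated data, which held no GC trend, mitochondrial shift or outlying library and so cannot speak to their effect. Fold changes are on the log2 scale, and the list counts use an unadjusted edgeR p under 0.05.

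The comparison, the gene lists and the naming rule were chosen with earlier results of these data known. The rule takes up to 12 genes in each direction by fold change with at least 1 CPM, groups apart and an unadjusted p under 0.05 in both fits, up to 3 members of each list by p, all writers, erasers and mitochondrial messengers, 10 heart genes, and up to 10 in each direction called by DESeq2 and limma voom. The text names fewer. A result on 1 gene is not reported here.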

Additional observations from a re-analysis of the deposited data

Results flagged for a closer look

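In 8 of 206 groups of 4 values examined, 1 library lay far from the other 3 by Dixon's criterion, which chance meets in about 1 of 20 groups. Among genes lower in METTL3, HFD+STZ replicate 2 was high for H2-Aa (22.1 CPM) and HFD+STZ replicate 3 for Ctss (24.4 CPM). Among mitochondrial genes, HFD+STZ replicate 3 was high for mt-Nd6 (11753 CPM) and HFD+STZ replicate 1 low for mt-Tr (2.29 CPM). METTL3 replicate 2 was low for Bmpr2 (175.5 CPM) and high for Zfp760 (14.04 CPM). HFD+STZ replicate 1 was high for the splicing factor Srsf11 (77.0 CPM) and for Top2a (10.7 CPM).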

How the results depend on the processing

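In the 8 libraries edgeR called 0 genes in each planned edgeR fit, while DESeq2 called 139 and limma voom 395. Without chow replicate 3 and HFD+STZ replicate 1 together, chosen after seeing the data, edgeR called 403. In codes 25 to 33 DESeq2 called 586, limma voom 445, edgeR without a filter 733 and edgeR with the replicate block 375, and leaving out single libraries gave 0 to 24. There the block compares only the libraries numbered 2 and 3, since numbers 1 and 4 each occur in only 1 group. It leaves little from which to estimate the spread. Pairing by replicate number was not seen, which does not exclude it. Deviations of same-numbered libraries correlated at -0.19, 0.07, 0.14 and -0.08 for numbers 1 to 4. With the block the 8 libraries gave 0 calls and 951 genes at an unadjusted p under 0.05. The count at an unadjusted p under 0.05 also left the 1.5-fold range of 1346 with length and GC offsets (707), only the groups compared (2262), limma voom (3195) and the 2 libraries named above left out (3263), and that of 2428 in codes 25 to 33 with chow in the fit (1168).

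The mitochondrial difference was 10.1 points in codes 25 to 33 (exact permutation p = 0.1) and 10.02 to 12.6 when single libraries were left out (each p = 0.0571). Genes with a count differed by -1706 in codes 25 to 33 (exact permutation p = 0.1) and by -2116 to -1503 without single libraries (each p = 0.0571). Each of these is the smallest p its design allows.

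Few of the named genes' fold changes turned sign. In the 8 libraries Col3a1 was 0.50 with limma voom, 0.098 with the code range, -0.39 to 0.51 without single libraries and 0.50 without both libraries named above. There mt-Nd4l was 0.035 with the code range and -0.56 to 0.37 without single libraries, and with the offsets mt-Nd3 was -0.063 and Dcn -0.020. In codes 25 to 33, mt-Nd3 was -0.045, mt-Co3 -0.067, Trdn -0.038 and Cd36 -0.038 with the offsets, and mt-Nd4l -0.62 to 0.13 without single libraries. The cause was not tested.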
